A study of Mus musculus with 24 samples.

Results

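The question addressed here is whether the difference between 2 mouse strains was the same in both subsets of splenic conventional dendritic cells (cDC) after an injection of CpG-A, and which genes departed from that. The members are the 12 arrays of CpG-injected mice, chosen by their titles, of 24 arrays in all. Per gene, the difference between nonobese diabetic (NOD/ShiLt, here NOD) and C57BL/6 (B6) mice in CD8+ cDC was taken, and the same strain difference in CD11b+ cDC was subtracted from it. All values are log2 expression values as deposited, and this double difference is called the interaction. A positive interaction means that NOD minus B6 was larger in CD8+ than in CD11b+ cDC, and a negative one that it was larger in CD11b+ cDC.

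The 4 groups of 3 arrays are CD8+ cDC of B6, CD8+ cDC of NOD, CD11b+ cDC of B6 and CD11b+ cDC of NOD. All came from female mice 8 to 10 weeks of age, 12 h after CpG-A, and the other 12 arrays are the same 4 kinds of cells 12 h after PBS. The cells were sorted from collagenase-digested spleen, and cDNA for each array was amplified from 5 ng of total RNA. The 3 arrays per group limit the precision. Nothing in the labels ties the 3 arrays of a group to different mice, and p-values then reflect only how far these arrays spread, part of which may be technical.

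NOD mice develop autoimmune diabetes spontaneously, and B6 mice do not. CpG-A is a DNA oligonucleotide that binds Tlr9 in endosomes and is known for driving type I interferon. CD8+ cDC are specialised for taking up dying cells and cross-presenting antigen to CD8+ T cells, whereas CD11b+ cDC present mainly on MHC class II to CD4+ T cells. Natural killer (NK) cells, which kill target cells with perforin and granzymes, can carry CD11b and some CD11c.

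The sorted populations carried the markers they were sorted for. Cd8a, which encodes a chain of CD8, lay between 11.16 and 11.71 on the 6 arrays of CD8+ cDC and between 6.23 and 8.81 on the 6 of CD11b+ cDC. Itgam, which encodes CD11b, lay between 4.53 and 5.15 in CD8+ cDC and between 6.61 and 7.82 in CD11b+ cDC, so the subsets did not overlap for either gene. Replicate 1 of NOD CD8+ cDC stood apart from the other arrays, with a mean correlation of 0.95 with its own group against 0.962 to 0.986 for the other CpG arrays. The median standard deviation per gene was 0.218 in that group and 0.136 to 0.164 in the other 3 CpG groups.

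With limma and Benjamini-Hochberg adjustment, 266 of 11235 tested genes had an interaction after CpG at an adjusted p under 0.05, which is 2.37% of them. Of these, 124 were positive (1.1%) and 142 negative (1.26%), against a median over all tested genes of 0.01. Positive ones had a median of 1.49 and reached 4.65, with 97 at or above 2-fold and 38 at or above 4-fold. Negative ones had a median of -1.23, with 103 at or above 2-fold and 14 at or above 4-fold. At the edge of the threshold, Pde4c (0.62) and 4932438H23Rik (-0.93) lay just inside it, and Fbxl20 (-0.95) and Pla2g4a (-0.82) just outside. Every called gene kept its sign when each of the 12 arrays was left out in turn, and 65 positive and 64 negative genes stayed called in all 12 such fits. The count itself moved with single arrays, to 541 without replicate 1 of NOD CD8+ cDC (316 positive, 225 negative, 263 shared with the full set). It was 166 without replicate 2 of B6 CD8+, 155 without replicate 1 of B6 CD11b+, 176 without replicate 1 and 140 without replicate 2 of NOD CD11b+ cDC, and 595 in a fit of all 24 arrays. Same-numbered arrays of different groups tended to deviate together, and with the replicate number as a block 500 genes passed (243 positive, 257 negative), or 520 with it as a random block, the 266 among them both times.

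Of the 266 genes, 169 had a called strain difference in CD11b+ cDC alone and 58 in CD8+ cDC alone. With the replicate block these were 275 and 125 of 500, but without replicate 1 of NOD CD8+ cDC they were 225 and 224 of 541. In the 8 arrays with replicate numbers 2 and 3, an alternative chosen after seeing the data, they were 100 and 49 of 193. The gap between the subsets thus depends on the arrays fitted. The strain difference itself passed for 1180 genes (10.5%) in CD8+ cDC, 625 higher (5.56%) and 555 lower (4.94%) in NOD, and for 1790 (15.9%) in CD11b+ cDC, 1025 higher (9.12%) and 765 lower (6.81%). NOD and B6 arrays of CD8+ cDC with the same replicate number deviated together, and with that number as a block 2238 genes passed there, 1382 higher and 856 lower. The count in CD8+ cDC was 3269 (2269 higher, 1000 lower) without replicate 1 of NOD, above the 2509 in CD11b+ cDC in the same fit. The larger side turned in other fits, with 152 higher and 239 lower of 391 in a fit of only its 6 arrays, 262 and 419 of 681 without replicate 1 of B6, 297 and 388 of 685 without replicate 2 of NOD, and 261 and 352 of 613 without replicate 3 of NOD. Without replicate 2 of B6 it was 555 (280 and 275). Neither the larger side in CD8+ cDC nor the order of the subsets by their counts is therefore settled. In CD11b+ cDC it was 1031 without replicate 1 of B6, 1039 without replicate 2 of NOD and 2712 in a fit of only its 6 arrays. Of the 124 positive genes, 84 were lower in NOD in CD11b+ cDC and not called in CD8+ cDC, 24 were higher in NOD in CD8+ cDC and not called in CD11b+ cDC, 7 moved in opposite directions, 7 were lower in NOD in both, and 2 were called in neither subset. Of the 142 negative genes, 85 were higher in NOD in CD11b+ cDC and not called in CD8+ cDC, 34 were lower in NOD in CD8+ cDC and not called in CD11b+ cDC, 9 were lower and 7 higher in both, 4 moved in opposite directions, and 3 were called in neither. A strain difference that was not called in a subset is not shown to be absent there.

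**Figure D1:**
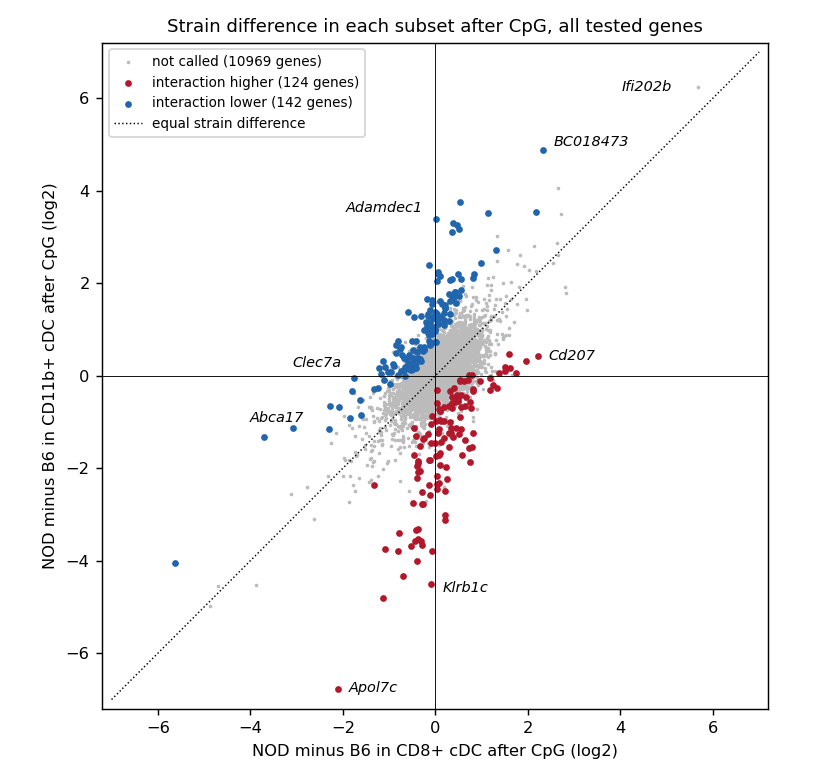
Difference between NOD and B6 after CpG in CD8+ cDC (horizontal axis, log2) and in CD11b+ cDC (vertical axis, log2). Each point is a tested gene, red points are the 124 genes with a positive and blue points the 142 with a negative interaction, grey points were not called, and the dotted line marks an equal strain difference. Red points run mainly down the vertical axis, to -6.77 for Apol7c and -4.51 for Klrb1c, and blue points mainly up it, to 4.88 for BC018473.

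Promoter sequences are shown for genes that lead the positive and negative sets and have a single start in the table used, namely Apol7c (lower in NOD in both subsets), Klrb1c (lower in NOD in CD11b+ cDC), Vsx1 (higher in NOD in CD11b+ cDC) and Abca17 (lower in NOD in both, more so in CD8+ cDC). Each is the 250 bases before the RefSeq start in GRCm38.p6, printed 5′ to 3′ on the gene's own strand, which is the minus strand for all 4: chr15:77533316-77533565 for Apol7c, chr6:128788642-128788891 for Klrb1c, chr2:150689138-150689387 for Vsx1 and chr17:24351060-24351309 for Abca17. Capitals mark matches to the interferon-stimulated response element (ISRE, GAAA and a second GAAA 2 bases on), the GAS element (TTCNNNGAA) or the kappaB motif, each searched on both strands.
Apol7c: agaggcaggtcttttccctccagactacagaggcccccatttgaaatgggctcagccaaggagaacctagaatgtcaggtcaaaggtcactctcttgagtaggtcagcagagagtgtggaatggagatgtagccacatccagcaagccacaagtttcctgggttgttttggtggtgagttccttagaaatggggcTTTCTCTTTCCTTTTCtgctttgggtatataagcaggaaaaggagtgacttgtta
Klrb1c: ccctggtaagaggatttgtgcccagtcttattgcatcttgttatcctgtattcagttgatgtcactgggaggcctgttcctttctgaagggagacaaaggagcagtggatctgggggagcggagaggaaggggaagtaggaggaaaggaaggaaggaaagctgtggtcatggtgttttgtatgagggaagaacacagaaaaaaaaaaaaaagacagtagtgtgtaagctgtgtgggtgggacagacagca
Vsx1: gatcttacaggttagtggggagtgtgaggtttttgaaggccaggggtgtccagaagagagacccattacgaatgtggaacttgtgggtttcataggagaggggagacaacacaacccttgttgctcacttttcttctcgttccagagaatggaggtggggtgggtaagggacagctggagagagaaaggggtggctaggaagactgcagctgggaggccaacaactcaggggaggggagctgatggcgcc
Abca17: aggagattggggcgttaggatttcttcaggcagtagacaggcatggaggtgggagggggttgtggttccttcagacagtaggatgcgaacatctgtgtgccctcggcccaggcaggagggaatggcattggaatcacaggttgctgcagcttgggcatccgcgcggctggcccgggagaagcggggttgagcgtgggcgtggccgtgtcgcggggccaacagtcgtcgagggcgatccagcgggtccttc
Apol7c held 2 overlapping matches to the ISRE, the motif of interferon-activated transcription factors, whose far ends lie 55 and 49 bases before the start. The other 3 windows held no match to these letters. An ISRE match was present in 3.46% of all 27025 genes with a promoter in the table, in 3.36% of the 9012 tested genes with one, in 5 of the 100 positive genes with one (5%) and in 8 of the 107 negative genes with one (7.48%). For the GAS element the shares were 8.13% of all, 7.28% of the tested, 9% of the positive and 12.1% of the negative genes. For kappaB they were 8.23%, 10.6%, 7% and 10.3% in the same order. A match is a description of these letters and not evidence of binding.

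Apol7c, a member of the apolipoprotein L family, had the largest positive interaction. Its values were 12.69, 12.47 and 12.48 in B6 CD8+ cDC and 10.99, 10.23 and 10.09 in NOD CD8+ cDC. They were 11.88, 11.54 and 11.85 in B6 CD11b+ cDC and 4.85, 4.79 and 5.33 in NOD CD11b+ cDC. NOD arrays were thus below B6 arrays in both subsets with no overlap, and in CD11b+ cDC the gene lay near the bottom of the scale in NOD. The strain difference was -2.11 ± 0.21 (SE, n = 3 per group) in CD8+ and -6.77 ± 0.21 in CD11b+ cDC, an interaction of 4.65 ± 0.29 (limma, adjusted p = 1.83e-06). Under PBS the interaction had the same sign, at 2.23 (adjusted p = 0.0073). The Apol7 genes are near-identical copies, so the assignment of the probe set to Apol7c is uncertain.

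Genes of NK cells led the positive interactions, with 11 of the 15 largest. Of 22 NK cell markers 22 were tested, and 16 had a positive interaction, against 1.1% of all tested genes. None had a negative one, and their median was 2.81 against 0.01 over all genes tested. In 19 of the 22, all 3 arrays of B6 CD11b+ cDC lay above the other 9 CpG arrays, a pattern found in 3.49% of all tested genes. The mean over the list ran from 9.01 to 10.01 in B6 CD11b+ cDC, from 6.67 to 6.88 in NOD CD11b+ cDC, from 6.3 to 6.74 in B6 CD8+ cDC and from 6.11 to 6.39 in NOD CD8+ cDC. The B6 CD11b+ arrays were thus above all others and the other 3 groups lay close together. In B6 CD11b+ cDC 22 of the markers exceeded the array median on all 3 arrays, against 12 in NOD CD11b+, 11 in B6 CD8+ and 10 in NOD CD8+ cDC. Exceeding the array median on 3 or more of the 24 arrays was also the filter for testing. A marker could thus be tested through the B6 CD11b+ arrays alone, so these counts are descriptive only.

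Among the receptors, Klrb1c, an activating lectin-like receptor of NK cells, was at 7.63, 9.1 and 7.8 in B6 CD11b+ cDC. On the other 9 CpG arrays it lay between 3.38 and 4.2. Its strain difference was -0.09 ± 0.33 in CD8+ and -4.51 ± 0.33 in CD11b+ cDC, an interaction of 4.42 ± 0.46 (limma, adjusted p = 0.000195). Ncr1, the activating receptor NKp46, stood at 9.91, 10.49 and 9.33 in B6 CD11b+ cDC against 4.92, 5.8 and 6.06 in NOD, with values of 4.21 to 5.21 in CD8+ cDC. Its interaction was 3.61 ± 0.42. Klra8 (3.71), the inhibitory receptor chain gene Klrc1 (3.67), Klre1 (3.14) and Klrb1a (2.93) followed the same order, each highest in B6 CD11b+ cDC. Klrk1, whose product NKG2D is shared with activated T cells, did not pass, with an interaction of 0.01 ± 0.28 and values of 8.34 to 10.17 on all 12 arrays. Members of the Klra and Klrb1 families are close in sequence, so a probe set may read more than 1 of them, and strain variants under the probes were not tested.

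The effector genes of killing had positive interactions too. Prf1, which encodes perforin, was at 10.3, 11.33 and 10.04 in B6 CD11b+ cDC and at 7.06, 7.02 and 6.91 in NOD CD11b+ cDC. It lay between 6.47 and 6.67 in B6 and between 5.76 and 6.36 in NOD CD8+ cDC, which did not overlap but were not called (-0.45, adjusted p = 0.292), and its interaction was 3.11 ± 0.37 (limma, adjusted p = 0.000427). Gzma (3.32), Gzmb (2.66) and the granule protein gene Nkg7 (3.61) had interactions of similar size, and Gzmb was also lower in NOD in CD8+ cDC, by a difference of -1.08 (limma, adjusted p = 0.0389). Ifng, the macrophage-activating cytokine of NK and T cells, was at 8.88, 9.71 and 8.32 in B6 CD11b+ cDC. It lay between 5.21 and 6.11 on the other 9 arrays, with no overlap, and its interaction was 3.26 ± 0.39 (limma, adjusted p = 0.000439). Xcl1, the chemokine that attracts Xcr1-bearing CD8+ cDC, was at 10.83 to 11.36 in B6 CD11b+ and at 7.78 to 8.42 in NOD CD11b+ cDC. Its interaction was 3.23 ± 0.4. Il2rb (2.98) and Il18rap (2.7), receptor chains for cytokines that stimulate NK cells, followed. Thy1, listed among the T cell markers and carried by NK cells too, had an interaction of 3.37 ± 0.4, with 9.44 to 10.87 in B6 CD11b+ cDC and 6.34 to 7.94 elsewhere. Of 11 T cell markers 2 were positive, Thy1 and Ms4a4b, against 1.1% of all tested genes, and none negative, with a median of 0.61. The Ms4a4b call (1.52, adjusted p = 0.0385) was lost when any of 9 of the 12 arrays was left out.

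Of the 62 positive genes that were highest on the 3 arrays of B6 CD11b+ cDC, 16 were in the NK list, 2 in the T cell list and 44 in neither. The median interaction was 2.21 in these 62 and 1.2 in the other 62 positive genes. The split itself favours that gap, since high B6 CD11b+ values raise the interaction. The part of NK cells in these results was not tested, and fewer cells of a type and less RNA per cell cannot be told apart in sorted bulk samples. The count of NK markers was 15 to 17 whichever of the 12 arrays was left out, and 7 of 12 under a filter that required expression on 12 of the 24 arrays, which leaves fewer of them to test.

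**Figure D2:**
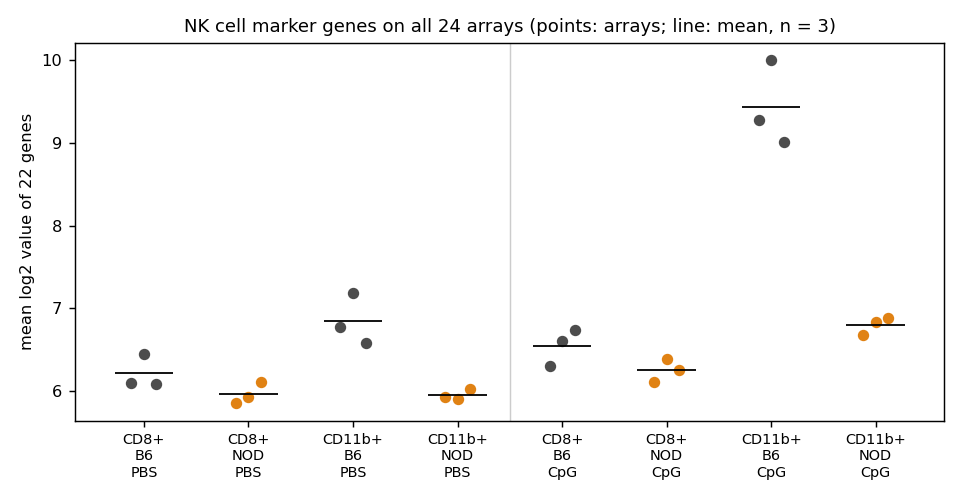
Mean log2 value of the 22 NK cell marker genes on each of the 24 arrays (points, grey for B6 and orange for NOD), with the mean of each group of 3 as a line, by subset and strain, under PBS on the left and after CpG on the right. After CpG the B6 CD11b+ arrays lie between 9.01 and 10.01 and all other arrays at or below 6.88, whereas under PBS the B6 CD11b+ arrays lie between 6.58 and 7.18.

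Positive genes outside these lists included regulators and chemokines of dendritic cells. Irf8, the transcription factor that CD8+ cDC depend on, was at 10.52, 10.6 and 10.73 in B6 and 10.71, 10.96 and 11.05 in NOD CD8+ cDC. The CD11b+ arrays were at 10.13, 10.31 and 9.96 in B6 and 8.91, 8.81 and 8.97 in NOD. The strains overlapped in CD8+ cDC and were apart in CD11b+ cDC, with a strain difference of 0.29 ± 0.12 and -1.24 ± 0.12 and an interaction of 1.53 ± 0.17 (limma, adjusted p = 0.000236). Ccl22, a chemokine of mature dendritic cells that attracts regulatory T cells, lay between 9.24 and 9.54 in CD8+ cDC, where the strains overlapped. In CD11b+ cDC it was at 8.27 to 8.46 in B6 and 6.4 to 6.88 in NOD, an interaction of 1.8 ± 0.19 (limma, adjusted p = 0.000195). Cxcl16, a chemokine displayed on the cell surface, was lower in NOD in CD11b+ cDC by a difference of -0.67 and had an interaction of 1.01 ± 0.18.

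Cd8a itself had a positive interaction. It was at 11.42, 11.42 and 11.71 in B6 and 11.16, 11.41 and 11.54 in NOD CD8+ cDC. In CD11b+ cDC, where its level was lower but above the array medians (5.783 to 5.873), it was at 8.45, 7.87 and 8.81 in B6 and 6.99, 6.23 and 6.48 in NOD. The strains were apart only in the second pair, giving an interaction of 1.66 ± 0.32 (limma, adjusted p = 0.014). The co-stimulatory receptor gene Tnfrsf9 was at 8.18 to 8.59 in B6 CD11b+ cDC and at 6.16 to 7 on the other 9 arrays, with an interaction of 1.82 ± 0.21. Pfkp, a phosphofructokinase of glycolysis, was lower in NOD in CD11b+ cDC by a difference of -1.72 and had an interaction of 1.26 ± 0.24. Scn3a, a sodium channel subunit gene, was at 7.51 to 7.87 in B6 CD11b+ cDC and at 4.05 to 4.74 elsewhere, and its interaction of 3.14 ± 0.19 after CpG was matched by 3.2 ± 0.19 under PBS. Bcl2, an inhibitor of apoptosis (1.84 ± 0.38, adjusted p = 0.0211), was also highest in B6 CD11b+ cDC, and lost its call in 4 of the 12 fits without 1 array. The B6 CD11b+ arrays were the highest for Tnfrsf9, Scn3a and Bcl2, the pattern seen for the NK markers, and not for Irf8, Ccl22, Cd8a or Cxcl16, where CD8+ cDC were as high or higher.

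In the fit of all 12 arrays fewer positive interactions came from CD8+ cDC. Ccl19, a ligand of Ccr7 that guides mature dendritic cells and T cells, was at 9.13, 8.99 and 9.32 in B6 and 9.67, 10.13 and 10.05 in NOD CD8+ cDC. In CD11b+ cDC it was at 7.78 to 8.06 in B6 and 7.47 to 7.85 in NOD, where the strains overlapped. The interaction was 1.14 ± 0.22 (limma, adjusted p = 0.014), and the call was lost without replicate 2 of NOD CD11b+ cDC. Cd207, which encodes langerin, a lectin of some CD8+ cDC, was at 4.76 to 4.89 in B6 and 6.43 to 7.95 in NOD CD8+ cDC and at 4.39 to 5.03 in CD11b+ cDC. Its interaction was 1.79 ± 0.39 (limma, adjusted p = 0.0296), a call lost in 9 of the 12 fits without 1 array, and under PBS it was 2.56 (adjusted p = 2.34e-05). Siglech, a lectin of plasmacytoid dendritic cells, was higher in NOD in CD8+ cDC by 1.51 (interaction 1.42, lost in 7 of 12 such fits). Of 11 plasmacytoid markers 3 were positive (Siglech, Atp1b1 and Cox6a2), against 1.1% of all tested genes, and none negative, with a median of 0.49. The Cox6a2 call was lost in 13 of 26 alternatives. By strain, 2 of the 11 were called higher in NOD in CD8+ cDC and 3 lower in CD11b+ cDC, against 5.56% and 6.81% of all tested genes. Their mean over the list ran from 7.48 to 7.81 in B6 and from 7.67 to 8.19 in NOD CD8+ cDC, and from 7.74 to 7.82 in B6 and 7.41 to 7.53 in NOD CD11b+ cDC. Their part in the result was not tested.

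A few further genes were picked after their values were seen, as those leading the less common patterns. Vdr, the vitamin D receptor, was at 5.77, 6.08 and 5.85 in B6 and 7.24, 7.19 and 7.26 in NOD CD8+ cDC, and at 5.13 to 5.95 in CD11b+ cDC of both strains. Its interaction was 1.59 ± 0.26 (limma, adjusted p = 0.00524) after CpG and 1.6 under PBS. Dgkz, a diacylglycerol kinase, had an interaction of 1.68 ± 0.3, with a strain difference of 1.75 in CD8+ and 0.07 in CD11b+ cDC. Cd1d1, which encodes the molecule that presents lipids to NKT cells, was called in opposite directions, at 8.58, 8.41 and 8.72 in B6 and 8.91, 8.93 and 9 in NOD CD8+ cDC. In CD11b+ cDC it was at 9.05, 9.16 and 9.11 in B6 and 7.77, 7.74 and 7.82 in NOD. The groups were separate in both subsets with the order of the strains reversed, giving an interaction of 1.71 ± 0.15 (limma, adjusted p = 5.4e-05). Cd1d1 has a near-identical neighbour, Cd1d2, so its assignment is uncertain.

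**Figure D3:**
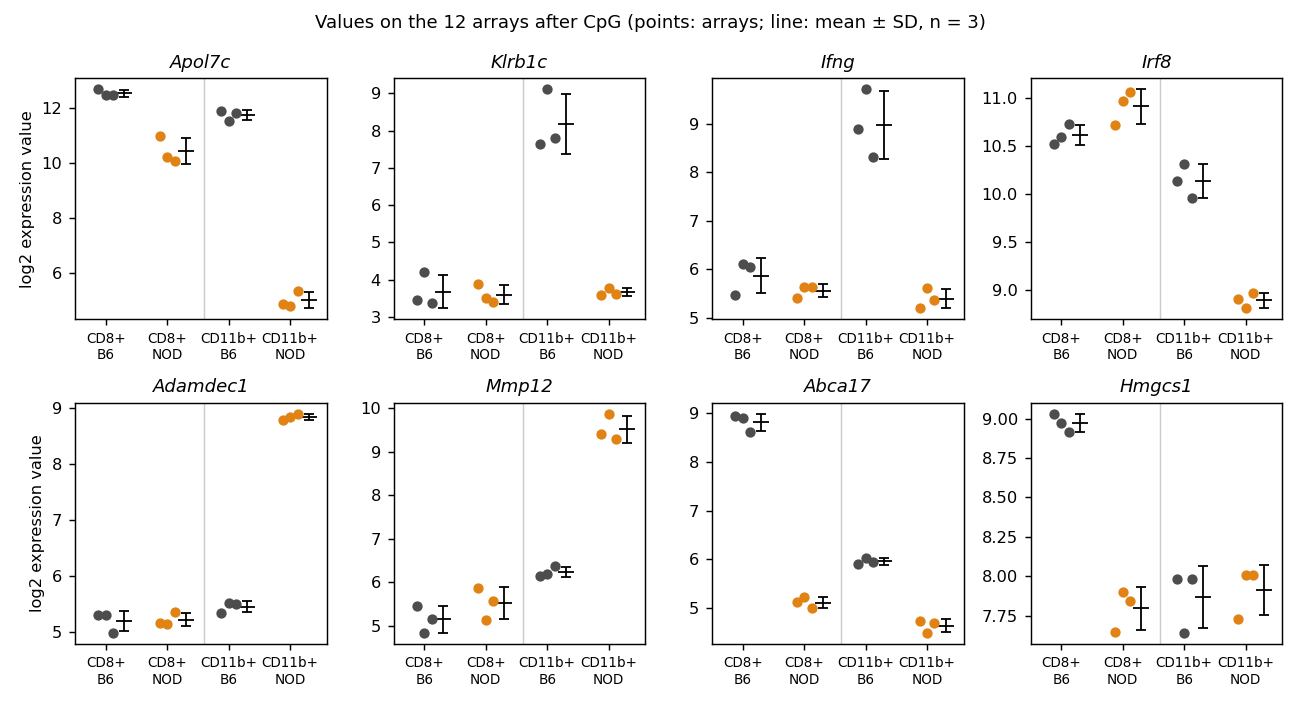
Log2 expression values of 8 genes on the 12 CpG arrays (points, grey for B6 and orange for NOD; black lines give the mean ± SD of 3 arrays), with CD8+ cDC left and CD11b+ cDC right of the vertical line in each panel. Klrb1c and Ifng are high only on the B6 CD11b+ arrays, Adamdec1 and Mmp12 only on the NOD CD11b+ arrays, and Abca17 and Hmgcs1 are highest in B6 CD8+ cDC.

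The largest negative interactions were of genes high in NOD CD11b+ cDC. In 89 of the 142 negative genes (62.7%) the 3 NOD CD11b+ arrays lay above the other 9, against 13.8% of all tested genes. High values in that group make the interaction negative, so the call itself favours this pattern and the share is descriptive only. Adamdec1, a secreted metalloprotease made by macrophages and dendritic cells, was at 5.34, 5.52 and 5.5 in B6 and 8.79, 8.85 and 8.9 in NOD CD11b+ cDC. In CD8+ cDC it was at 4.99 to 5.31 in B6 and 5.14 to 5.35 in NOD. Only NOD CD11b+ cDC stood out, with an interaction of -3.37 ± 0.18 (limma, adjusted p = 5.47e-07). Mmp12, the macrophage elastase, was at 6.14, 6.18 and 6.36 in B6 and 9.4, 9.87 and 9.29 in NOD CD11b+ cDC. It lay between 4.83 and 5.85 in CD8+ cDC, and its interaction was -2.92 ± 0.29 (limma, adjusted p = 0.000146). Cygb, which encodes the oxygen-binding protein cytoglobin, was at 7.17 to 7.47 in B6 and 10.85 to 11.32 in NOD CD11b+ cDC, an interaction of -3.23 ± 0.24.

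Other leading negative genes were also high in NOD CD11b+ cDC. Vsx1, a homeobox gene known from the eye (-2.79), the olfactory receptor gene Olfr111 (-2.74), the sialic acid-cleaving lyase gene Npl (-2.67), the intestinal cadherin gene Cdh17 (-2.18), Nxpe5 (-2.15) and Scel (-2.02) were called higher in NOD in CD11b+ cDC and not called between strains in CD8+ cDC. BC018473 (-2.55) and the sialyltransferase gene St6galnac2 (-2.39) were higher in NOD in both subsets and more so in CD11b+ cDC. For St6galnac2 the values were 6.48, 6.18 and 6.39 in B6 and 7.57, 7.37 and 7.53 in NOD CD8+ cDC. In CD11b+ cDC they were 6.5, 6.01 and 5.92 in B6 and 10.14, 9.47 and 9.4 in NOD, so the strains were apart in each subset.

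Several negative genes encode receptors of myeloid cells. Trem1, an activating receptor of neutrophils and monocytes, was at 4.63 to 4.74 in B6 and 6.5 to 7.54 in NOD CD11b+ cDC and at 4.18 to 4.52 in CD8+ cDC. Its interaction was -2.52 ± 0.3 (limma, adjusted p = 0.000427). Il1r2, the decoy receptor for interleukin-1 (-2.05 ± 0.4), lost its call without replicate 2 of B6 CD8+ cDC. Adgre1, which encodes the macrophage marker F4/80 (-1.98 ± 0.4), lost its call in 3 of the 12 fits without 1 array. Of the lectins of the Clec4 cluster, Clec4a2 was at 5.32 to 5.63 in B6 and 7.42 to 7.66 in NOD CD11b+ cDC, an interaction of -1.74 ± 0.21 (limma, adjusted p = 0.000427). Clec4a4, which encodes the DCIR2 lectin of CD11b+ cDC, was at 6.98 to 7.46 in B6 and 8.68 to 9.09 in NOD CD11b+ cDC. Its interaction was -1.21 ± 0.25 (limma, adjusted p = 0.0227), a call lost in 7 of the 12 fits without 1 array. Over the list of lectin and Fc receptors, 1 of 19 was positive and 3 negative (5 with the replicate block), with a median of -0.3. The shares over all tested genes were 1.1% positive and 1.26% negative, and with the block 257 of 11235 were negative.

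Markers of other myeloid cells were read beside these genes. Of 5 tested neutrophil markers 2 were negative, Mmp9 (-1.71 ± 0.31) and Retnlg (-1.29 ± 0.31, lost in 10 of 12 fits without 1 array), and none positive. Among all tested genes 1.26% were negative. S100a8 (0.97 ± 0.6) and S100a9 (0.39 ± 0.54) did not pass. The mean of the 5 ran from 6 to 6.37 in B6 and from 6.51 to 7.08 in NOD CD11b+ cDC, and from 5.79 to 6.36 over the CD8+ arrays. Of 11 monocyte and macrophage markers 1 was negative, Adgre1, and none positive. Their mean ran from 7.4 to 7.97 in B6 and from 7.96 to 8.13 in NOD CD11b+ cDC, and from 6.08 to 6.96 over the CD8+ arrays. The parts of these cells in the result were not tested. None of 12 red pulp macrophage markers and none of 15 B cell markers passed limma's adjusted threshold (0 and 1 had an unadjusted p under 0.05). Of the 15 B cell markers 5 were called higher in NOD in CD8+ and 7 in CD11b+ cDC, against 5.56% and 9.12% of all tested genes. Their interaction had a median of -0.05. The medians of both lists changed sign between alternatives, from -0.46 to 0.49 for the B cell and from -0.34 to 0.15 for the red pulp macrophage markers. With the replicate block 1 B cell marker was negative, as were 257 of all 11235 tested genes.

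A further set of negative interactions came from CD8+ cDC. Abca17, a lipid transporter gene of the ABC family, was at 8.94, 8.9 and 8.62 in B6 and 5.12, 5.22 and 5 in NOD CD8+ cDC. Its CD11b+ values were 5.9, 6.03 and 5.95 in B6 and 4.74, 4.49 and 4.69 in NOD. The strain difference was -3.71 ± 0.13 in CD8+ and -1.32 ± 0.13 in CD11b+ cDC, an interaction of -2.39 ± 0.18 (limma, adjusted p = 1.1e-05). Clec7a, which encodes the fungal sugar receptor dectin-1, was at 8.44, 9.15 and 8.44 in B6 and 6.75, 7.06 and 6.94 in NOD CD8+ cDC. It lay between 6.92 and 7.27 in CD11b+ cDC, where the strains overlapped, and its interaction was -1.71 ± 0.26 (limma, adjusted p = 0.00326). Icos, a co-stimulatory receptor gene of T cells, was at 8.5 to 8.94 in B6 and 7.37 to 7.62 in NOD CD8+ cDC and at 8.97 to 9.49 in CD11b+ cDC. Its interaction was -1.38 ± 0.21 after CpG and -1.51 under PBS (adjusted p = 8.37e-05). Cd70, the ligand of CD27 on T cells (-0.98 ± 0.23, adjusted p = 0.0433), lost its call in 9 of 12 fits without 1 array. Ndrg2 and Rgs12 were picked after their values were seen. Ndrg2 had strain differences of -3.07 in CD8+ and -1.13 in CD11b+ cDC (interaction -1.95). Rgs12, a regulator of G protein signalling, was lower in NOD in CD8+ cDC (-0.75) and higher in CD11b+ cDC (0.57).

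Cholesterol synthesis genes stood on the negative side. Of 16 tested 3 were negative, against 1.26% of all tested genes, none positive, and the median was -0.64 against 0.01 over all genes. With the replicate block 8 were negative, as were 257 of all 11235 tested genes. Hmgcs1, which makes the precursor of mevalonate, was at 9.03, 8.97 and 8.91 in B6 and 7.64, 7.9 and 7.84 in NOD CD8+ cDC. It lay between 7.64 and 8.01 in CD11b+ cDC, where the strains overlapped, and its interaction was -1.22 ± 0.19 (limma, adjusted p = 0.00353). Cyp51, the lanosterol demethylase, was higher in NOD in CD11b+ cDC by 0.62, with an interaction of -0.95 ± 0.18 (limma, adjusted p = 0.013). Sqle, squalene epoxidase (-0.99 ± 0.21), lost its call in 5 of 12 fits without 1 array. Of the members that did not pass, Idi1 had -0.81 ± 0.22 (adjusted p = 0.0817) and Srebf2, the regulator of the pathway, -0.66 ± 0.18 (adjusted p = 0.0796). Idi1 was nonetheless lower in NOD in both subsets, by differences of -1.87 and -1.06.

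Few interferon-stimulated genes, the main response to CpG-A, had a called interaction, as was so over all tested genes (2.37%). Of 47 tested 1 was called, Ly6e (0.33 ± 0.08, adjusted p = 0.0473), and it lost its call in 11 of 12 fits without 1 array. Their median was -0.14, with 38 of 47 below 0. Under PBS their interaction leaned the other way, with a median of 0.27, 38 of 47 above 0 and 3 called positive (0.81% of all tested genes). The difference between CpG and PBS was called for 0 of the 47, with a median of -0.43. After CpG 16 of the 47 were lower in NOD in CD8+ cDC and none higher (median -0.46), against 4.94% and 5.56% of all tested genes. In CD11b+ cDC 7 were lower and none higher (median -0.25), against 6.81% and 9.12%. Ifi27l2a, for example, was at 12.46 to 12.64 in B6 and 11.62 to 12.29 in NOD CD8+ cDC and at 12.85 to 12.94 in CD11b+ cDC, with an interaction of -0.46 ± 0.19 (adjusted p = 0.309). None of the 10 interferon-inducible GTPases passed limma's adjusted threshold, and 2 had an unadjusted p under 0.05. Of the Ifi200 family 1 of 10 was negative, Ifi205 (-0.9 ± 0.21), which lost its call in 9 of 12 such fits. Ifi202b, a family member known to be higher in NOD, was at 8.97 to 9.94 in NOD and 2.98 to 3.73 in B6 over both subsets, a strain difference of 5.67 in CD8+ and 6.24 in CD11b+ cDC and an interaction of -0.57 ± 0.34 (adjusted p = 0.54).

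Genes of antigen presentation, NF-kB signalling and Tlr sensing were also little called, as were all tested genes (2.37%). In lists this short, few or no calls do not set them apart. None of 12 MHC class II genes passed limma's adjusted threshold (2 at an unadjusted p under 0.05), while all 12 were below 0 (median -0.22). Of the 12, 7 were called higher in NOD in CD11b+ and 1 in CD8+ cDC, against 9.12% and 5.56% of all tested genes. With no called interaction, the 7 and 1 do not show a difference between the subsets. None of 16 MHC class I loading genes, 21 NF-kB genes, 9 chemokine receptors, 32 proliferation genes and 16 tolerance-associated genes passed limma's adjusted threshold for the interaction either, with 1, 6, 5, 6 and 5 at an unadjusted p under 0.05. With the replicate number as a fixed block 3 of the 9 chemokine receptors were positive, as were 1 each of the NF-kB, proliferation and tolerance-associated genes, and 1 MHC class II gene was negative. Without replicate 1 of NOD CD8+ cDC 3 chemokine receptors, 9 proliferation genes and 2 tolerance-associated genes were positive and 1 NF-kB gene negative. The proliferation genes had 30 of 32 above 0 (median 0.37). Among all 11235 tested genes 1.1% had a positive and 1.26% a negative interaction in the fit without the block. With the block 243 were positive and 257 negative, and without replicate 1 of NOD CD8+ cDC 316 and 225. Of 25 CD8+ cDC markers 3 were positive (Cd207, Cd8a and Irf8), with a median of 0.38, and of 22 CD11b+ cDC markers 2 were negative (Clec4a2 and Clec4a4), with a median of -0.36. The block gave 6 and 4. Tlr9, the receptor for CpG, was at 10.25 to 10.64 in CD8+ and 10.58 to 10.98 in CD11b+ cDC over both strains, an interaction of 0.05 ± 0.18 (adjusted p = 0.96).

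Of 15 tested cytokines 1 passed, Ifng, against 2.37% of all tested genes. Il12b, the shared chain of IL-12 and IL-23, was lower in NOD in both subsets, at 8.04 to 8.3 against 9.32 to 9.6 in CD8+ and at 9.31 to 10.21 against 10.77 to 10.88 in CD11b+ cDC. Its interaction was -0.34 ± 0.26 (adjusted p = 0.684). Il15, which supports NK and memory T cells, was likewise lower in NOD in both, by differences of -0.94 in CD8+ and -1.36 in CD11b+ cDC, with an interaction of 0.42 ± 0.31. Il1b had an interaction of 0.04 ± 0.41 and Tnf of 0.87 ± 0.27 (adjusted p = 0.123). Ptger4, a prostaglandin E2 receptor, was lower in NOD in CD11b+ cDC by a difference of -1.1 and had an interaction of 0.58 ± 0.28. Zbtb32, a transcriptional repressor, had an interaction of 1.1 ± 0.41 (adjusted p = 0.227), with 7.2 to 8.28 in B6 and 6.27 to 7.4 in NOD CD11b+ cDC, where the strains overlapped. Itgam (-0.45 ± 0.36) and Itgax, which encodes CD11c (-0.13 ± 0.33), did not pass.

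**Figure D4:**
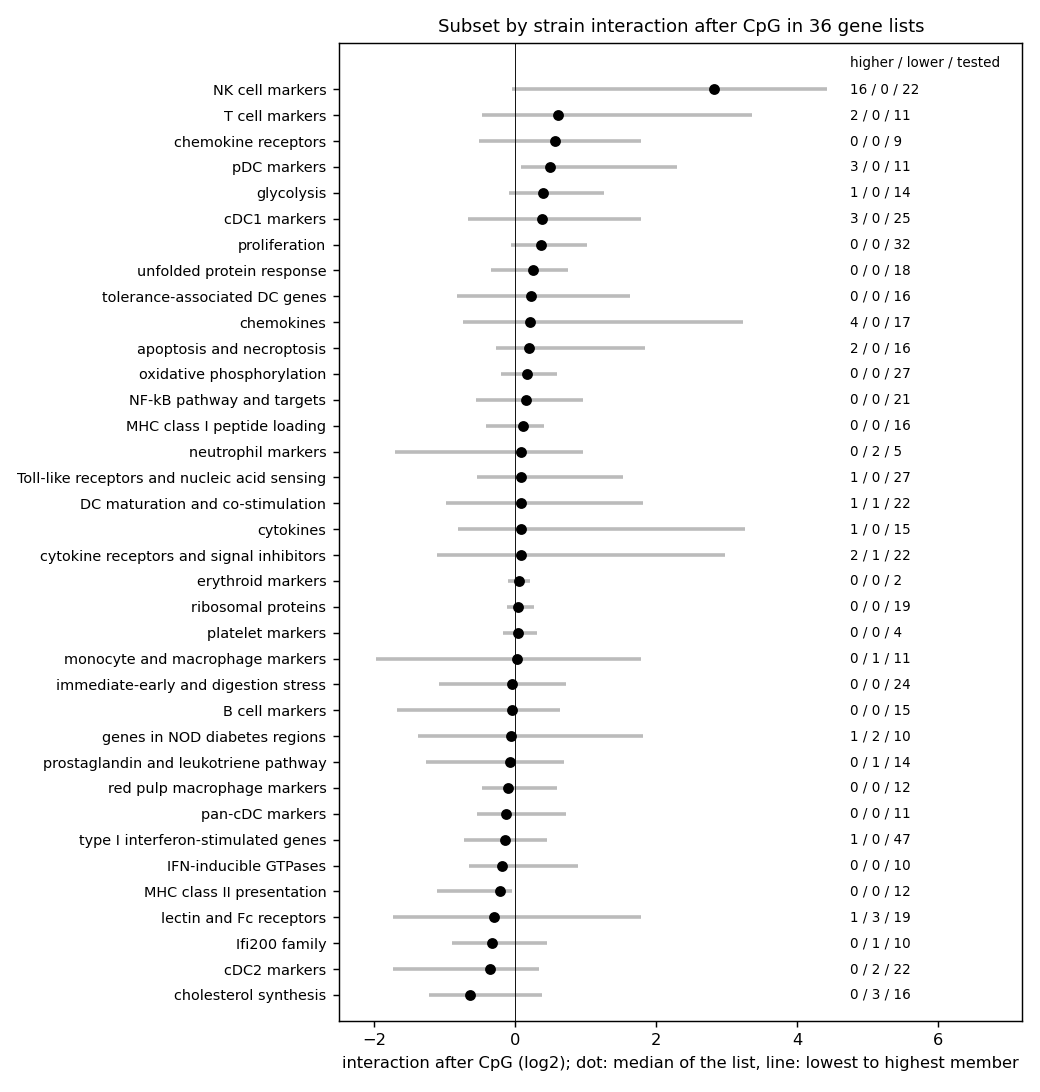
Interaction after CpG (log2) in 36 gene lists, with the median of the tested members as a dot and the range from the lowest to the highest member as a line, and on the right the number of members called positive (higher), called negative (lower) and tested. The NK cell markers have the highest median, 2.81, and the cholesterol synthesis genes the lowest, -0.64.

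To see how far the interaction was present without CpG, the same double difference was taken in the 12 PBS arrays. It was called for 181 genes (1.61%), 91 positive (0.81%) and 90 negative (0.801%), and for 114 without replicate 3 of PBS B6 CD8+ cDC or 99 in a fit of all 24 arrays. Of the 266 genes called after CpG 55 were also called under PBS, 20 positive and 35 negative, all 55 with the same sign. The sign under PBS was the same for 110 of the 124 positive genes (88.7%) and 121 of the 142 negative genes (85.2%), against 58.7% of all tested genes. The PBS and CpG arrays are separate samples, so the comparison shares no array. Scn3a, Cd207, Icos, Vdr, Trem1 (-2.44), Vsx1 (-2.37), Cygb (-2.28) and Adamdec1 (-2.74) belong to the 55.

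The difference between both interactions, tested in all 24 arrays, passed for 35 genes (0.312%), 19 positive (0.169%) and 16 negative (0.142%), and 29 of them were among the 266. Ifng had an interaction of 0.12 under PBS, where its group means lay between 4.96 and 5.24, and differed by 3.14 ± 0.45 (limma, adjusted p = 0.00114). Klrb1c differed by 3.47 ± 0.56, Thy1 by 3.05 ± 0.5, Prf1 by 2.61 ± 0.45 and Tnfrsf9 by 1.82 ± 0.25, each larger after CpG. Over the 22 NK markers the PBS interaction had a median of 0.66, with 4 positive, and the difference a median of 1.85, with 4 positive. On the other side Abca17 differed by -1.94 ± 0.24 (limma, adjusted p = 0.000486) and Clec7a by -2.01 ± 0.32, with PBS interactions of -0.45 and 0.3. Mmp12 was high in CD11b+ cDC of both strains under PBS, with means of 9.71 in B6 and 10.65 in NOD, and its interaction went from -1 to -2.92. Il12b went the other way, from -2 under PBS (adjusted p = 2.73e-05), where its mean was 8.99 in B6 CD8+ cDC and 6.25 to 6.63 in the other 3 groups, to -0.34 after CpG. The count of 35 rose to 70 without replicate 1 of CpG NOD CD8+ cDC and 53 without replicate 3 of CpG B6 CD11b+ cDC. It was 19 to 23 without replicate 1 or 3 of PBS B6 CD8+, replicate 2 of CpG B6 CD8+, replicate 1 of PBS NOD CD8+, replicate 1 or 3 of PBS B6 CD11b+, replicate 1 of CpG B6 CD11b+, replicate 3 of PBS NOD CD11b+ or replicate 2 of CpG NOD CD11b+ cDC.

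**Figure D5:**
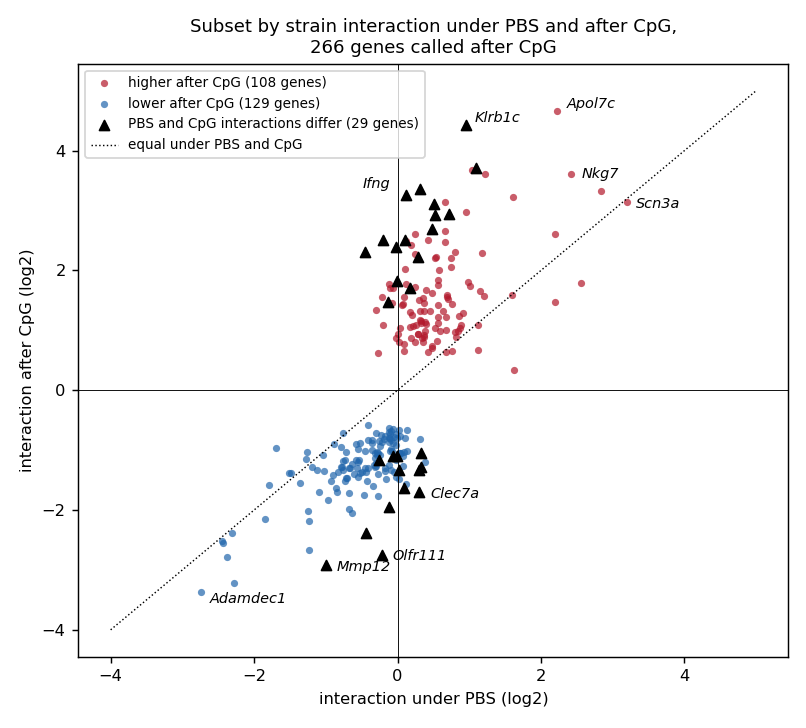
Interaction under PBS (horizontal axis, log2) and after CpG (vertical axis, log2) for the 266 genes called after CpG, red for positive and blue for negative, with black triangles for the 29 genes whose interactions differ between PBS and CpG and a dotted line for equal interactions. Scn3a lies near the dotted line, at 3.2 and 3.14, and Ifng and Klrb1c far above it, at 0.12 and 3.26 and at 0.95 and 4.42.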

How the data were processed

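All 24 arrays were used as deposited: per the submitters' processing notes the authors applied RMA in Partek (versions not given). The deposited values are on a log2 scale, from 1.925 to 14.12 over 35556 probe sets. Array medians, taken over the 21789 probe sets with a single gene symbol, were 5.783 to 5.873. The array model named in the labels differs from that of the annotation the probe sets match and is unsettled. Of the probe sets, 21789 carried a single gene symbol and were kept (1621 carried several and 12146 are unnamed here), with 21698 symbols brought up to date by gene ID. A gene with more than 1 probe set (999 genes) was read from the one with the highest mean. Of 19938 genes, 11235 lay above an array's median on 3 or more of the 24 arrays and were tested.

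In R 4.3.3, limma 3.58.1 (with statmod 1.5.0 and the data.table package in version 1.17.8) fitted the 4 group means of the 12 CpG arrays with 8 residual degrees of freedom and eBayes with a trend. Tests were two-sided with Benjamini-Hochberg adjustment at 0.05. The strain differences come from the same fit, the PBS interaction from the 12 PBS arrays, and the difference between both from all 24 with 16 residual degrees of freedom. On data simulated for the CpG interaction over 11235 genes, 96% of genes with an interaction of 2 or -2 and 56% and 58% of those with 1 and -1 were called, and 6 of 11035 others. The simulated errors were independent, with the same standard deviation in all 4 groups of a gene. The wider spread of NOD CD8+ cDC and the shared deviations of same-numbered arrays were not simulated, so these rates need not hold for the real arrays.

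The members and the 36 gene lists were chosen with earlier results of these data known. Named genes are the 15 highest and 15 lowest called genes with the same sign in all 12 fits without 1 array, per list up to 4 called members and 2 others, and a fixed set (Cd8a, Itgam, Itgax, Tlr9, Il1b, Il12b, Il15, Ptger4, Zbtb32, Clec4a4, Ifi202b, Gzmb, and Ifnb1, which did not pass the filter). Others are named as picked after their values were seen. Deviations of same-numbered CpG arrays correlated over 0.1 in all 3 pairs of NOD and B6 CD8+ cDC (0.242 to 0.544), of both subsets of B6 (0.132 to 0.445) and of both subsets of NOD (0.203 to 0.353). Over all groups they did so in 15 of 18 pairs (-0.003 to 0.544), against 5 of 36 differently numbered pairs (median -0.11). The deviations of a group sum to 0, which pulls differently numbered pairs the opposite way, so they are no independent baseline. By the same-numbered pairs the number ties most arrays of the interaction, though not each pair of groups. The fit without the block was kept as main, with blocked counts beside it. The labels do not say what a replicate number shares. Alternatives were filters, the handling of probe sets, normalization, eBayes settings, array weights, the arrays fitted, a replicate block and each array left out.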

Additional observations from a re-analysis of the deposited data

Results flagged for a closer look

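For 13 named genes the subset by strain interaction differed between CpG and PBS by a test of the difference itself in all 24 arrays (limma, adjusted p under 0.05). It was larger after CpG for the NK cell genes Klrb1c (difference of 3.47), Klra8 (2.61), Klrb1a (2.22) and Prf1 (2.61), and for Ifng (3.14), Thy1 (3.05), Il18rap (2.22) and Tnfrsf9 (1.82). These 8 genes were highest on the 3 CpG arrays of B6 CD11b+ cDC, where 19 of 22 NK markers lay above the other 9 CpG arrays, and the part of NK cells in this was not tested. For Il12b the difference was 1.66, from a negative interaction under PBS to one near 0. It was more negative after CpG for Mmp12 (-1.92), Abca17 (-1.94), Clec7a (-2.01) and Olfr111 (-2.52). The calls of Klrb1c, Ifng, Thy1, Prf1, Il18rap, Tnfrsf9, Abca17 and Clec7a held in all alternatives run for them, and those of Klra8, Klrb1a, Il12b, Mmp12 and Olfr111 were lost in at least 1.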

How the results depend on the processing

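Of 3484 values of the CpG interaction of named genes under the alternatives, 73 changed sign, and 0 of these were of a gene that was called. The medians of 10 of the 36 lists changed sign under at least 1 alternative, and the larger side of the strain calls in CD8+ cDC turned in some, as given beside them. The 266 genes with an interaction after CpG became 160 with a filter on 12 of the 24 arrays (9926 genes tested), 986 with array weights, 595 in a fit of all 24 arrays, 500 with the replicate number as a fixed block and 520 with it as a random block, and 140 to 541 without 1 array. Its larger side also turned, as with array weights (520 positive, 466 negative). The 266 genes are among the 500 and 520 called with the replicate block. The weights ran from 0.214 to 3.23, both in NOD CD8+ cDC, so that weighted group rests mostly on replicate 2. The strain difference in CD8+ cDC gave 2271 with all 24 arrays, 2238 with the replicate block, 391 with only its 6 arrays and 2445 with the arrays of replicate numbers 2 and 3, an alternative chosen after seeing the data, against 1180, and 555 to 3269 without 1 array. In CD11b+ cDC it gave 2712 with only its 6 arrays, against 1790, and 1031 to 2509 without 1 array. Under PBS the interaction gave 99 with all 24 arrays, against 181, and 114 to 165 without 1 array. The difference between PBS and CpG gave 19 to 70 without 1 array. The block did not move the counts in CD11b+ cDC, under PBS or of the difference between PBS and CpG by over 1.5 times. For the CpG interaction of named genes the alternatives kept the call or its absence in 3301 cases, lost it in 159 and gained it in 24. For the difference between PBS and CpG they kept the call in 267 and lost it in 71. Causes were not tested. Genes near background and 3 arrays per group limit what can be called.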
